A study of Mus musculus with 8 samples.

Results

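The olfactory receptor cluster of mouse chromosome 2 was examined for the time at which it replicates in embryonic stem cells with and without the chromatin protein CTCF. Its members were the protein-coding genes whose symbol is Olfr followed by a number and that lie on chromosome 2 between 85000000 and 90500000 of mm10 (GRCm38). The rule gave 222 genes, 20.1% of the 1106 protein-coding Olfr genes and a small share of the 21900 protein-coding genes of the RefSeq table. They run from 85330967 to 90401674, over 5.07 Mb. A member's value was the mean of the 6-kb windows that overlap its body, or the nearest window within 50 kb where none does. Of the 222 members, 221 had a value, and Olfr1228 (89248721 to 89249692) had none.

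Replication timing had been profiled by Repli-seq, in which newly made DNA is labelled with BrdU and sequenced apart from early and from late S phase. Auxin samples were E14Tg2a mouse embryonic stem cells given 500 µM indole-3-acetic acid for 2 days to degrade CTCF through an auxin-inducible degron, and control samples were such cells without auxin, so both groups carry the degron. Each of the 4 profiles, 2 per group, joins 2 libraries, 1 from each S-phase fraction after a BrdU pulse of 2 hours, and holds a score for 316864 windows on 20 chromosomes. A higher score means earlier replication, a direction taken from the authors' early-to-late list, and scores have a genome-wide SD of 2.10. The labels name neither the subclone nor whether replicates are separate cultures, so every p-value speaks of the spread among these profiles alone, which may be technical. No cells that lack the degron were analysed here with auxin, and the files hold no measure of CTCF protein, so effects of auxin and of CTCF loss cannot be told apart. Read counts are not in the files, and depth is therefore unknown.

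Olfactory receptors are G protein-coupled receptors of the cilia of olfactory sensory neurons. Each neuron is known to express a single allele of a single receptor gene, while the remaining receptor genes are kept in compact chromatin. Their coding region usually lies in a single exon, and the genes stand in tandem arrays that grew by duplication, so neighbours can be close copies of each other. In cells that do not use them, such as embryonic stem cells, these arrays are known as late-replicating DNA. CTCF recognises insulator sites through its zinc fingers and, with cohesin, anchors chromatin loops.

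The DNA just upstream of the members is shown first, because it shows the base composition of the array and which members are close copies of each other. The sequences are RefSeq windows of 300 bases on GRCm38.p6, 250 before and 50 after each annotated start, and 187 windows of 186 members could be matched. The median member body is 945 bp long and 168 of the 222 lengths are multiples of 3, so most gene models hold the coding region without UTRs. In 130 of the 187 windows (69.5%) the annotated start is an ATG, so there the window is the DNA before the coding start. GC content was low, with a median of 32% (18.3% to 46.7%), against 36.7% in 757 windows of other Olfr genes and 56.3% in 21263 windows of all protein-coding genes, of which 8.13% have an ATG at the start. Among windows with an ATG at the start alone, the medians were 31.3% for members, 35.3% for other Olfr genes and 39% for all genes, the receptors included. No CpG was present in 67 windows (35.8%), against 32.8% of other Olfr windows and 4.63% of all windows. The sequences of one of the latest members, Olfr1096 (chr2:86874753-86875052, minus strand), and of one of the earliest, Olfr153 (chr2:87531785-87532084, plus strand), show this composition, with capitals at matches to the motifs searched:
Olfr1096: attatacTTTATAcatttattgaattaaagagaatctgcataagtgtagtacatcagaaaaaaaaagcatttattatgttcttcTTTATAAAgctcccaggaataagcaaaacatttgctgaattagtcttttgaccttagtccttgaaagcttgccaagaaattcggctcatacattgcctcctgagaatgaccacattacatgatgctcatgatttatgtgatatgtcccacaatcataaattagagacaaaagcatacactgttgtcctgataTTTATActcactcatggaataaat
Olfr153: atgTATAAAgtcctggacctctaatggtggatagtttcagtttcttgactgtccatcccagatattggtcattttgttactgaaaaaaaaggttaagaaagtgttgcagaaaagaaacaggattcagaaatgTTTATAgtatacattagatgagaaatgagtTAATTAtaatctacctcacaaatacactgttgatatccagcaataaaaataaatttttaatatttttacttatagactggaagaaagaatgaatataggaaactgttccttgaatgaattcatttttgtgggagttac

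4 motifs were searched on both strands, and matches of different motifs may overlap. TATAAA, the TATA box core, stood in 103 of the 187 windows (55.1%), against 37.8% of other Olfr windows and 12.6% of all windows. Among windows whose annotated start is an ATG the share was 58.5% for members, 40.2% for other Olfr genes and 31.0% for all genes, the receptors included. Among the rest it was 47.4%, 31.2% and 11.0%. Of the 1728 ATG windows of all genes, 130 were of members and 555 of other Olfr genes, so 31.0% is not the share of genes outside the family. TAATTA, a homeodomain core of the kind bound by Lhx2, stood in 46 windows (24.6%), against 17.2% and 4.53%, shares that were not split by the kind of start. The 10-base palindrome of Ebf factors stood in 0 windows, against 0.661% of other Olfr windows and 0.959% of all windows. A 12-base spelling of the CTCF core stood in 1 window (0.535%), against 0.132% and 3.76%. These are letter matches in a short window, and the part of the low GC content in the shares of AT-rich motifs was not tested. In the sequence of Olfr1096, TATAAA and its reverse complement overlap at one place, and Olfr153 holds both TATAAA and TAATTA.

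Copying between members was visible in the same windows. The closest other member's window had a median identity of 57.3% while 15 windows had a partner over 90%. The closest pair was Olfr1506 (chr2:90224422-90224721, minus strand) and Olfr1565 (chr2:90321972-90322271, plus strand), whose 300 bases are identical and lie in opposite orientation. It is shown as the closest pair, and neither gene body is covered by a window of the timing grid:
Olfr1506: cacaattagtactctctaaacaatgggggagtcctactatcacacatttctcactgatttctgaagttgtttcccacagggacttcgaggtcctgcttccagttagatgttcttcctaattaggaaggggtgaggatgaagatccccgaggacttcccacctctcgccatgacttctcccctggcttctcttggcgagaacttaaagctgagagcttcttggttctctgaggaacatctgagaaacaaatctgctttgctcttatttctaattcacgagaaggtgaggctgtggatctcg
Olfr1168 (chr2:88184629-88184928, plus strand) and Olfr1173 (chr2:88274998-88275297, minus strand) differed at 5 of 301 aligned positions (98.3% identity), which are in capitals:
Olfr1168: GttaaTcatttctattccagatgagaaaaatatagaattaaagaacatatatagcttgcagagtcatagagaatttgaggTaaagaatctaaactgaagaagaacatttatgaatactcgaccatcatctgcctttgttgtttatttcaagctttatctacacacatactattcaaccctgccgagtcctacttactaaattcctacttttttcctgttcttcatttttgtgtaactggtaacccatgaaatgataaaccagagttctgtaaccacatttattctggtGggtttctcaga
Olfr1173: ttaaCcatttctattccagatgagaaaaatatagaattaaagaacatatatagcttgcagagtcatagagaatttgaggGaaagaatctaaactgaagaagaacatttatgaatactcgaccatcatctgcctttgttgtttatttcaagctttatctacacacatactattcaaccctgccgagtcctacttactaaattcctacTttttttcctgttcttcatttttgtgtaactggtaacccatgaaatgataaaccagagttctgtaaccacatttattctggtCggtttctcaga
Olfr142 (chr2:90252937-90253236, minus strand) and Olfr1271 (chr2:90266379-90266678, minus strand), neighbours near the distal end, differed at 33 of 304 aligned positions (89.1% identity), again in capitals:
Olfr142: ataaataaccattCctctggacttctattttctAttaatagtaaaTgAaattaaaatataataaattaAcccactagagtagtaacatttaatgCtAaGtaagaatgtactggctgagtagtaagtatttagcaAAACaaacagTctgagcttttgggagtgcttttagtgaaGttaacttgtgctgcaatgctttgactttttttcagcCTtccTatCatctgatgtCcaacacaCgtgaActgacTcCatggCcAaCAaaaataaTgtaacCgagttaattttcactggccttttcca
Olfr1271: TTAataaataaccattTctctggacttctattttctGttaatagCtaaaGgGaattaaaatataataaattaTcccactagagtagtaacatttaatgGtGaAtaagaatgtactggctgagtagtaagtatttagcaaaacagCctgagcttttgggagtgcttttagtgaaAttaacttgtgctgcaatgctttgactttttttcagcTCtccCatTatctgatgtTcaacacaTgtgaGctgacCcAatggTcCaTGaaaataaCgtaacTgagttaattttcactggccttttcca

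The timing grid was thin over the cluster. Windows filled 385 of the 846 grid positions of the interval (45.5%), against 74.0% over the genome. Only 126 members had a window over their body, 109 of them a single window, and the other 95 (43.0%) took their value from the nearest window, up to 36080 bp away. Over all genes with a value that share was 5.04%. The 221 members held 177 distinct values, and 79 of them shared all their windows with another member, so members are not independent measurements. Among the full 1-Mb slices from the first member on, coverage was lowest between 88330967 and 89330966, where 29 of 168 grid positions (17.3%) held a score and 35 of 45 members had none over their body. The short remainder at the distal end (90330967 to 90401674), with Olfr1274 as its only member, held 2 of 12 (16.7%). The largest gap spanned 132 kb (89178001 to 89310000) and holds Olfr1228. How reads that match several copies were treated is not stated in the sources used here, and its part in the empty positions was not tested. A partner over 90% identity was found for 7 of the 82 upstream sequences of members without a timing window. The same held for 8 of the 104 upstream sequences of members with one.

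The cluster replicated late in all 4 profiles. The median member score was -2.61 and -2.71 in the auxin profiles, against -2.91 and -2.62 in the control profiles. The median over all genes lay between 1.83 and 1.89. By the mean of the 4 profiles, 218 members were late (below -0.5), 3 lay between -0.5 and 0.5, and 0 were early, against 23.9% of all genes that were late. Member means ran from -3.63 to 0.31, with quartiles at -3.08 and -2.11, and 4.42% of all genes with a value replicated later than the median member.

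Late timing was not even along the array. Scores fell steeply toward the first member, formed a pair of earlier islands inside, and climbed again from the last members outward, as the plot of timing along the cluster shows. The islands were chosen after their values were seen and are given as a description with no test. The first (86150001 to 86500000) holds 22 members from Olfr1042 to Olfr228, with window means of -1.25 and -1.68 in auxin cells, against -1.38 and -1.27 in control cells. The second (87350001 to 87700000) holds 16 members from Olfr1120 to Olfr1136, with -0.96 and -0.95 in auxin cells, against -1.51 and -0.61 in control cells. The control profiles thus lay further apart in the second island than the auxin profiles did. Members between the islands had medians of -2.86 and -3.39 in auxin cells, against -3.30 and -3.04 in control cells.

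**Figure D1:**
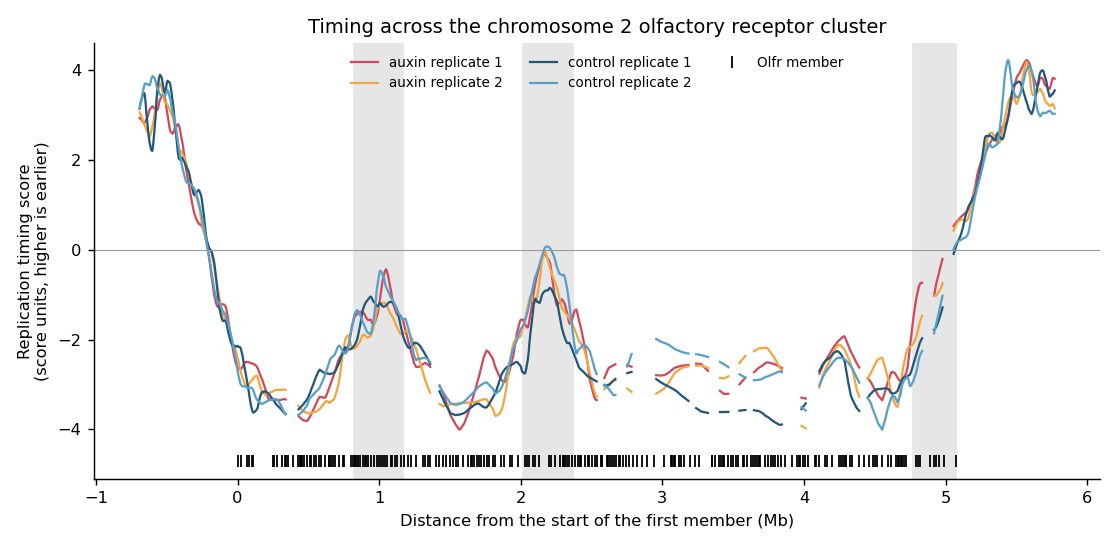
Replication timing score (y axis, score units, higher is earlier) against distance from the start of the first member (x axis, Mb), with one line for each profile and a tick for each Olfr member. Grey bands mark the 2 islands and the last 300 kb. Lines break where neighbouring windows are far apart, and inside the cluster scores stay mostly between -4 and -2 outside the bands.

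The second island surrounds the only protein-coding genes inside the array that are not olfactory receptors, apart from Fads2b. Pramel7 (87489088 to 87492418), of the PRAME-like family active in the early embryo and in embryonic stem cells, scored -0.12 and -0.10 in auxin cells, against -0.95 and -0.03 in control cells. Its neighbour Pramel6 (87506565 to 87510865), of the same family, scored -0.14 and -0.10 in auxin cells, against -0.91 and 0.07 in control cells. Both lay in or beside the island's earliest 50-kb bin (87500001 to 87550000), which averaged -0.27 and -0.30 in auxin cells, against -0.89 and 0.04 in control cells. Fads2b (85484092 to 85518935), a fatty acid desaturase gene in the proximal part, was as late as the receptors around it, with -2.90 and -3.14 in auxin cells, against -3.19 and -3.42 in control cells.

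The earliest members lay in the second island and at the distal end. Olfr1274 (90400640 to 90401674), the last member, scored 0.58 and 0.51 in auxin cells, against 0.03 and 0.10 in control cells. Its auxin profiles both lay above its control profiles, by 0.48 ± 0.20 (SE; limma adjusted p = 0.286). Olfr153 (87532035 to 87532958) scored -0.24 and -0.34 in auxin cells, against -0.86 and 0.05 in control cells. Olfr1128 (87544607 to 87545542) scored -0.40 and -0.47 in auxin cells, against -0.87 and 0.0038 in control cells. Olfr1126 (87457167 to 87458111) scored -0.44 and -0.78 in auxin cells, against -1.18 and -0.36 in control cells. In these 3 island genes both auxin values fell between the control values, and the control replicates were the farther apart.

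The latest members came from the stretches on either side of the first island. Olfr1097 (86890226 to 86892163) scored -4.00 and -3.42 in auxin cells, against -3.67 and -3.44 in control cells. Olfr1096 (86872674 to 86874802), scored -3.89 and -3.43 in auxin cells, against -3.68 and -3.46 in control cells. Olfr1013 (85769803 to 85770720) scored -3.73 and -3.52 in auxin cells, against -3.53 and -3.66 in control cells. The groups overlapped in all of these genes, and in Olfr1012 (85759439 to 85760374), which scored -3.70 and -3.48 in auxin cells, against -3.56 and -3.68 in control cells. Olfr987 (85330967 to 85331896), the first member, was not the earliest of the proximal end, with -2.60 and -2.38 in auxin cells, against -2.14 and -2.66 in control cells. Lrrc55 (85188067 to 85198750), the nearest measured gene outside that border, scored -1.27 and -0.92 in auxin cells, against -1.06 and -1.17 in control cells.

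**Figure D2:**
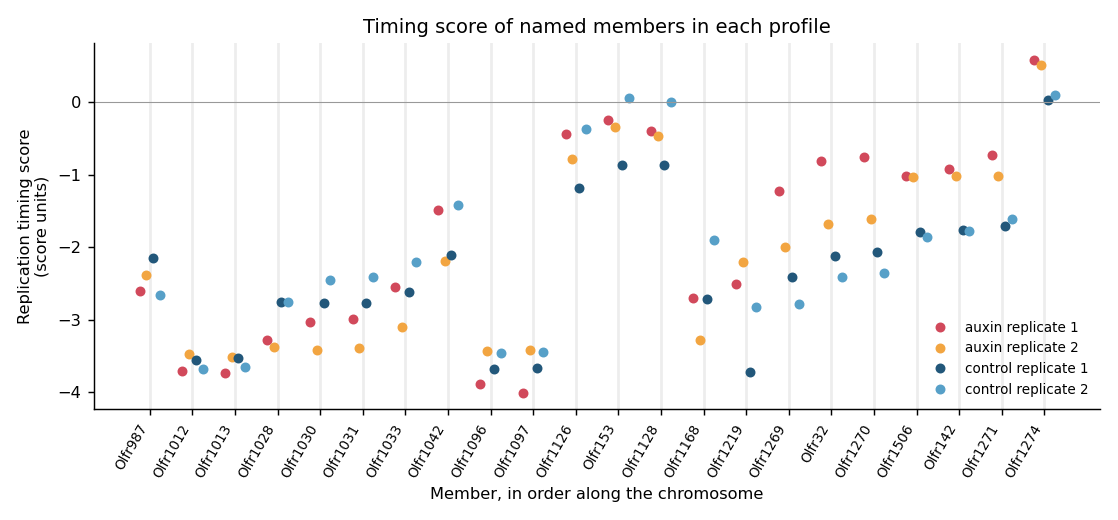
Timing score (y axis, score units) of the named members in each profile, in order along the chromosome (x axis), auxin points left of control points. The control points of Olfr153, Olfr1128 and Olfr1126 lie far apart, and both auxin points lie above both control points from Olfr1269 to Olfr1274.

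Auxin cells were set against control cells to ask whether the array changes its replication time when CTCF is lost. The array as a whole did not move beyond the spread between replicates. The cluster median averaged -2.66 ± 0.072 in auxin cells and -2.76 ± 0.21 in control cells (SD, n = 2 each), a difference of 0.10 (exact permutation test of the 4 profiles, two-sided, p = 0.667). With 2 profiles against 2 this exact permutation test cannot go below p = 0.333, so no difference of any size could pass it. The sign of this difference rests on control replicate 1, and without it the difference was -0.048, while it was 0.25 without control replicate 2 and 0.049 without auxin replicate 1. The mean over all windows of the interval was -2.11 and -2.27 in auxin cells, against -2.44 and -2.20 in control cells (difference 0.13, exact permutation p = 0.667). That difference was 0.0055 without control replicate 1, 0.25 without control replicate 2, 0.047 without auxin replicate 1 and 0.21 without auxin replicate 2. The spread among members, as the interquartile range, was 1.08 and 1.10 in auxin cells, against 1.17 and 0.98 in control cells (difference 0.010, exact permutation p = 1).

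Single members did not pass the test either. In a limma fit over 21078 genes with a value, 0 members and 0 genes in all (0%) had a Benjamini-Hochberg adjusted p under 0.05, and the smallest adjusted p of a member was 0.174. At an unadjusted p under 0.05, 22 members were earlier with auxin and 6 later, or 9.95% and 2.71% of the 221, against 7.63% and 9.5% of all genes. The median difference over members was 0.06 (all genes -0.0005), and differences ran from -0.69 to 1.03 with quartiles of -0.13 and 0.38. That median depended on single profiles. It was -0.068 without control replicate 1, 0.21 without control replicate 2, 0.0036 without auxin replicate 1 and 0.15 without auxin replicate 2. Over all genes the same fits gave -0.023, 0.024, 0.0016 and -0.016. Of the 221 members 125 were higher with auxin by the group means and 96 lower. The auxin and control profiles did not overlap in 79 members, 54 with higher auxin scores (24.4%, against 23.9% of all genes) and 25 with lower ones (11.3%, against 25.9% of all genes). The share with higher scores was close to that of all genes, while the share with lower ones was below it.

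Replicate noise over the array was large for its differences. The median absolute difference between replicates was 0.31 for auxin and 0.36 for control over the members, against a median absolute difference of 0.26 between the group means. Over all genes the replicate values were 0.22 and 0.26, and the group value was 0.28. Control replicate 1 lay below control replicate 2 in 151 members, with a median difference of -0.23.

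The differences were not scattered singly but ran in stretches along the array, as the plot of differences by position shows. Neighbouring members share or adjoin windows, so a stretch is not a count of separate events. Over all genes the profiles did not overlap in 23.9% with higher and 25.9% with lower auxin scores, and the counts along the array are to be read against these. In the proximal stretch before the first island, 7 of 37 members had higher auxin scores without overlap and 13 had lower ones. In the first island 0 of 22 were higher and 4 lower, and between the islands 1 of 34 was higher and 6 lower. In the second island 1 of 16 was higher and 0 lower. Between the second island and the last 300 kb 36 of 103 were higher and 2 lower, against the same 23.9% and 25.9% of all genes, but only 39 of these 103 had a window over their body.

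**Figure D3:**
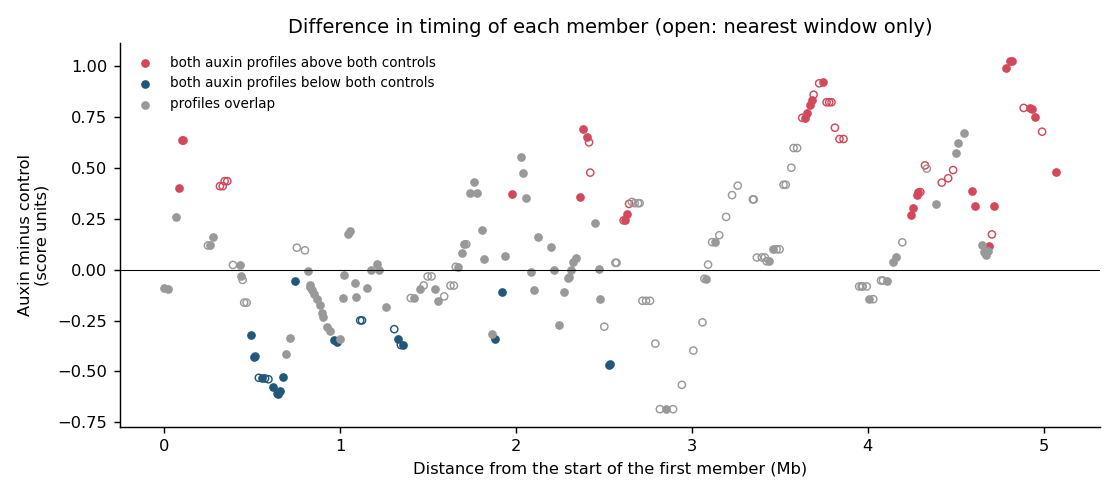
Auxin minus control difference of each member (y axis, score units) against distance from the start of the first member (x axis, Mb). Filled points have a window over the gene body, open points take the nearest window, and red and blue mark members whose profiles do not overlap. Red points gather beyond 3.5 Mb and at the distal end, where the highest reach 1.03, and blue ones between 0.4 and 0.8 Mb.

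The longest stretch of lower auxin scores covered 12 members from Olfr1018 to Olfr1032 (85822973 to 86008710), with differences of -0.61 to -0.32. Of these 12 members, 7 had a window over their body, and the 12 held 9 distinct values. Olfr1028 (85951065 to 85952039) scored -3.28 and -3.38 in auxin cells, against -2.75 and -2.75 in control cells. Its difference was -0.58 ± 0.20 (SE; limma adjusted p = 0.235). Olfr1030 (85979312 to 85984798) scored -3.04 and -3.41 in auxin cells, against -2.77 and -2.46 in control cells, and Olfr1031 (85991819 to 85992829), -2.99 and -3.39, against -2.76 and -2.42. Olfr1033 (86020640 to 86044808), the member with the most windows at 3, follows this stretch, and its groups overlapped, with -2.55 and -3.10 in auxin cells, against -2.61 and -2.20 in control cells. Olfr1042 (86159345 to 86160441), at the edge of the first island, had -1.49 and -2.19 in auxin cells, against -2.11 and -1.42 in control cells.

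Olfr1168 (88184879 to 88185817) had the lowest difference of the members with a window over their body, and Olfr1167 and Olfr1170 took the same value from its window. It scored -2.70 and -3.29 in auxin cells, against -2.71 and -1.90 in control cells. An auxin value and a control value were nearly equal there, and the difference of -0.69 ± 0.33 rested largely on control replicate 2 (SE; limma adjusted p = 0.341). Without that replicate it was -0.28. Its near copy Olfr1173 took its value from a window 8954 bp away and had -2.79 and -3.21 in auxin cells, against -2.88 and -1.99 in control cells.

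A stretch of higher auxin scores covered 14 members from Olfr1212 to Olfr1226 (88958468 to 89194032), with differences of 0.64 to 0.92. It lies in the slice with windows at 17.3% of grid positions. Only 5 of the 14 members had a window over their body, and the control replicates differed by up to 1.19. Olfr1219 (89074154 to 89075089) had the largest difference there, with -2.51 and -2.20 in auxin cells, against -3.72 and -2.82 in control cells. Leaving out control replicate 1 brought it to 0.47, and leaving out control replicate 2 raised it to 1.37.

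The distal end showed the largest differences of the array. In the last 300 kb (90101675 to 90401674), a width chosen after the values were seen, both auxin profiles lay above both control profiles in 9 of 9 members. Of these, 7 had a window over their body. Over all genes the share was 23.9%, and the 9 members are neighbours, so they are not separate observations. The 23 windows averaged -0.67 and -1.19 in auxin cells, against -1.73 and -1.81 in control cells, a difference of 0.84. It was 0.71 over the last 200 kb, 0.65 over the last 400 kb, and 0.58 to 1.10 when each profile was left out in turn. The SD between replicates was 0.37 in auxin cells, where replicate 1 was the earlier, and 0.055 in control cells.

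Olfr32 (90138081 to 90149990) had the largest difference of any member, with -0.81 and -1.67 in auxin cells, against -2.12 and -2.42 in control cells. The difference was 1.03 ± 0.32 (SE; limma adjusted p = 0.207). Olfr1270 (90149019 to 90150036), whose annotated body overlaps that of Olfr32, had -0.76 and -1.61 in auxin cells, against -2.07 and -2.35 in control cells. Olfr1269 (90118667 to 90119596) had -1.23 and -1.99 in auxin cells, against -2.41 and -2.79 in control cells. In these 3 genes the groups did not overlap, while the auxin replicates were farther apart than the control replicates.

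The members further out had tighter replicates. Olfr142 (90252069 to 90252986) scored -0.93 and -1.02 in auxin cells, against -1.76 and -1.78 in control cells. Its neighbour Olfr1271 (90265511 to 90266428), the near copy shown above, scored -0.73 and -1.01 in auxin cells, against -1.70 and -1.61 in control cells. Olfr1506 (90217395 to 90224471) scored -1.02 and -1.03 in auxin cells, against -1.78 and -1.86 in control cells, though its value comes from a window 21530 bp away. Its twin Olfr1565 (90322222 to 90329298), also without a window of its own, had -0.20 and -0.74 in auxin cells, against -1.28 and -1.02 in control cells. The differences of Olfr142, Olfr1271 and Olfr1506 were 0.80, 0.79 and 0.80, with limma adjusted p of 0.174, 0.180 and 0.174. They were the 3 of 221 members that passed in limma with a trended and robust variance, with adjusted p of 0.0413, 0.0461 and 0.0427. That fit called 5.31% of all genes and 2.01% in the earlier direction. The window used for Olfr1506 adjoins that of Olfr142, and the window of Olfr1271 lies close by, so the 3 are not separate observations.

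**Figure D4:**
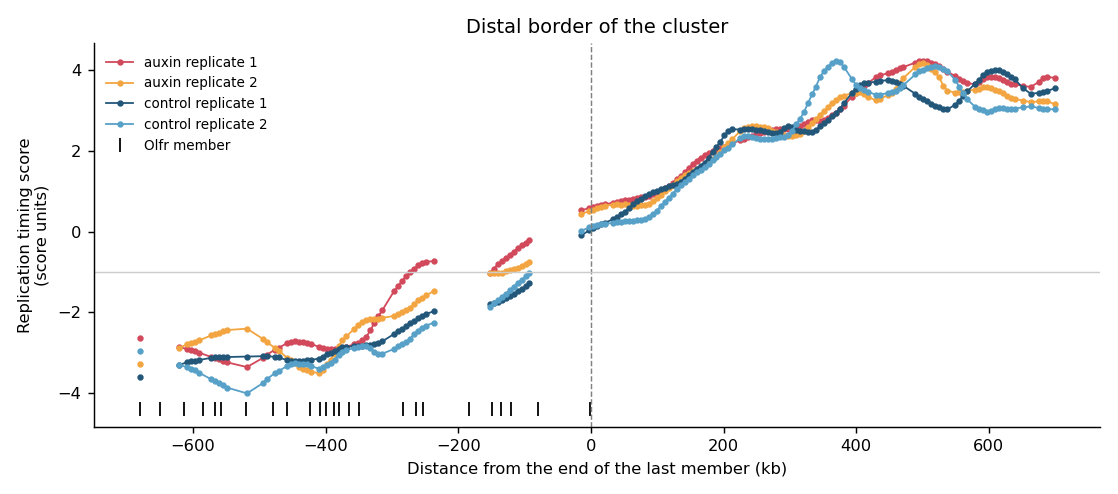
Timing score of each window (y axis, score units) against distance from the end of the last member (x axis, kb, dashed line at 0), with one line for each profile and a tick for each member. A grey horizontal line marks a score of -1. Over the last 300 kb both auxin profiles lie above both control profiles, and further outside the lines cross.

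The 50-kb bins of the interval were tested in the same way. Of its 103 bins, 61 held at least 3 windows, and 0 of these were called, against 707 of 42710 bins genome-wide (1.66%). At an unadjusted p under 0.05, 6 bins were earlier with auxin and 2 later, or 9.84% and 3.28% of the 61, against 10.6% and 11.1% of all bins. The median difference over the 61 bins was 0.11 (all bins 0.0052). It was 0.00012 without control replicate 1, 0.21 without control replicate 2, 0.050 without auxin replicate 1 and 0.18 without auxin replicate 2. Over all bins the median stayed between 0.0025 and 0.0070 in these fits. The bin with the smallest p (90100001 to 90150000) averaged -1.08 and -1.89 in auxin cells, against -2.31 and -2.66 in control cells (difference 1.00, limma adjusted p = 0.0860). The next one (90250001 to 90300000) averaged -0.62 and -0.96 in auxin cells, against -1.61 and -1.49 in control cells (difference 0.76, adjusted p = 0.0919). Both passed with a trended and robust variance, which called 10.8% of all bins, 5.17% in the earlier direction. With the replicate number as a block the first of them passed, in a fit that called 5.52% of all bins and 2.5% in the earlier direction. In the authors' deposited tables of regions, 0 overlapped the cluster. The nearest of the 63 early-to-late regions lay 19.6 Mb away (65598000 to 65736000), and the nearest of the 22 late-to-early regions 63.6 Mb away. These lists are short, with 4 and 1 regions on chromosome 2, so the lack of overlap says little about the array.

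The borders of the array were steps in timing. At the distal border, scores averaged 2.25 and 2.17 in auxin cells, against 2.14 and 2.15 in control cells, over the 500 kb outside. Over the 500 kb inside they averaged -1.79 and -2.09 in auxin cells, against -2.42 and -2.56 in control cells. The step, outside minus inside, was 4.03 and 4.25 in auxin cells, against 4.56 and 4.71 in control cells, lower by 0.49 with auxin (exact permutation p = 0.333, the smallest possible). The score, averaged over 5 windows, crossed -1 at 276 and 144 kb before the end of the last member in auxin cells, against 102 and 108 kb in control cells. The nearest measured gene outside, Ptprj (90429756 to 90580694), a receptor tyrosine phosphatase, scored 1.17 and 1.03 in auxin cells, against 1.04 and 0.77 in control cells.

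At the proximal border the step was 3.38 and 3.60 in auxin cells, against 3.75 and 3.74 in control cells. It was lower by 0.26 with auxin (exact permutation p = 0.333), but by only 0.0055 with 1 Mb on each side, where the distal step was still lower by 0.36. The crossing of -1 lay 167 and 131 kb before the first member in auxin cells, against 137 and 155 kb in control cells, so the groups overlapped there.

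Set beside other receptor genes, the array was later, and the gap to them changed by less than the spread between replicates. Its median lay below that of the other 883 measured Olfr genes by 1.00 and 1.08 in auxin cells, against 1.11 and 0.96 in control cells. The change in this gap with auxin was -0.0062 (exact permutation p = 1). Against 4176 other late genes outside the family, the gap was -0.70 and -0.79 in auxin cells, against -1.08 and -0.78 in control cells, a change of 0.18 (exact permutation p = 0.667). Leaving out control replicate 1 brought it to 0.028, and leaving out control replicate 2 to 0.33.

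Receptor genes no more than 1 Mb apart were joined into clusters, of which 11 hold at least 30 genes. The array is the largest of them and came second in lateness by the median gene. The latest was the other chromosome 2 cluster (111230853 to 112157007, 37 genes), with medians of -2.88 and -2.48 in auxin cells, against -3.10 and -2.68 in control cells. Next after the array came the chromosome 19 cluster (63 genes), with -2.61 and -2.53 in auxin cells, against -2.70 and -2.27 in control cells. The ranges of these 3 clusters over the profiles overlap, so their order is not settled. The second largest cluster, on chromosome 7 (102476773 to 105369317, 126 genes), had -2.41 and -2.21 in auxin cells, against -2.59 and -2.42 in control cells. At the early end, the chromosome 14 cluster (36 genes) had -1.44 and -1.53 in auxin cells, against -0.85 and -0.92 in control cells. The chromosome 11 cluster (30 genes) had the largest difference in the other direction, with -1.24 and -1.24 in auxin cells, against -2.12 and -2.21 in control cells. All 30 of its genes, which are neighbours, were higher without overlap, against 23.9% of all genes. The group medians of the chromosome 2 array overlapped, unlike those of the chromosome 14 and 11 clusters. There was no overlap either in the chromosome 7 clusters of 126 and 65 genes and the chromosome 9 cluster of 94 genes. That chromosome 9 cluster had -2.24 and -2.27 in auxin cells, against -1.92 and -1.59 in control cells. These differences between clusters were not tested. Coverage differed as well: windows filled 45.5% of grid positions in the array, 80.6% in the chromosome 11 cluster and 82.1% in the chromosome 14 cluster. It was 81.9% in the chromosome 10 cluster and 89.5% in the chromosome 17 cluster, whose groups also overlapped. The part of coverage in the overlap was not tested.

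**Figure D5:**
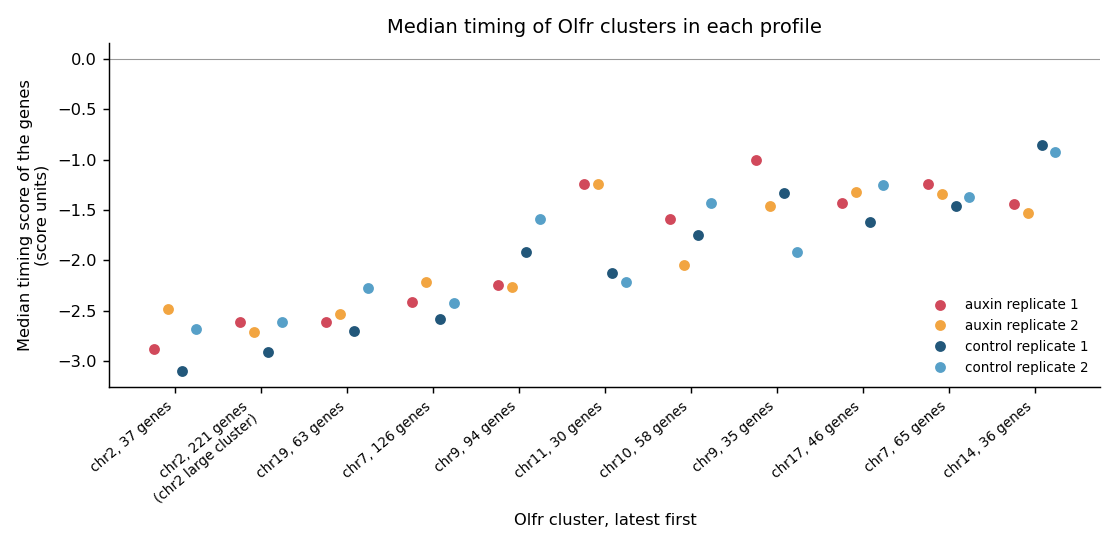
Median timing score of the genes (y axis, score units) of each of the 11 Olfr clusters of at least 30 genes (x axis, latest first by the mean of the 4 profiles), with one point for each profile, auxin left of control. The large chromosome 2 cluster lies between -2.91 and -2.61, and auxin and control points stand most clearly apart in the chromosome 11 and chromosome 14 clusters. They also do not overlap in the chromosome 7 clusters and the chromosome 9 cluster of 94 genes.

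Genes that carry the odorant signal, bring receptors to the membrane or govern receptor choice are spread over the genome, and 31 of them were measured. Unlike the receptors, 20 were early, 5 in between and 6 late, with a median score of 2.43. Over all genes 23.9% were late and the median was 1.87, so mostly early timing is not particular to this list. In limma 0 of the 31 passed, 2 were earlier and 1 later at an unadjusted p under 0.05 (7.63% and 9.5% of all genes), and the median difference was 0.06 (all genes -0.0005). Cnga2 on chromosome X (71991849 to 72010218), a subunit of the olfactory cyclic nucleotide-gated channel, had -2.05 and -2.49 in auxin cells, against -3.23 and -3.16 in control cells. Its difference of 0.93 ± 0.23 had the smallest p of the list (SE; limma adjusted p = 0.173). Slc24a4 on chromosome 12 (102128727 to 102267133), a calcium exchanger that ends the odour response, had 1.21 and 1.14 in auxin cells, against 0.54 and 0.51 in control cells. It was the only gene of the list to pass with a trended and robust variance (limma adjusted p = 0.0424), in the fit that called 5.31% of all genes and 2.01% as earlier. Ric8b on chromosome 10 (84917268 to 85018337), an exchange factor for the olfactory G protein, had 3.05 and 2.91 in auxin cells, against 3.69 and 3.40 in control cells (difference -0.56, limma adjusted p = 0.265). Rtp1 on chromosome 16 (23429133 to 23433960), which escorts receptors to the membrane, had -0.71 and -0.053 in auxin cells, against 0.29 and -0.22 in control cells, so its groups overlapped.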

How the data were processed

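Timing scores per 6-kb window were deposited by the authors for 2 auxin and 2 control profiles. Per the file headers they are quantile normalized, and the sorted columns are identical, so a shift of the whole genome or of overall contrast cannot be seen. Bowtie2, SAMtools and bedtools with mm10 are named in the submitters' processing notes. The score's formula and log base, the smoothing, the treatment of multiply matching reads and the depth are not stated in the sources used here. The authors' p-values and q-values were not used.

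Gene values were window means over RefSeq gene bodies (GRCm38.p6). The 2 groups were compared with limma 3.58.1 in R 4.3.3 (lmFit, then eBayes without trend) over all protein-coding genes with a value, genes with at least 3 windows and 50-kb bins with at least 3 windows, with Benjamini-Hochberg adjusted p under 0.05 as the threshold. The gene fits were also run on simulated data with independent noise in each gene. Real neighbours share windows, so those runs do not show how the fits behave on these data. 7 summaries per profile were compared by two-sided exact permutation of the 4 profiles. Their raw p-values, 0.333 to 1, were 0.933 to 1 after Benjamini-Hochberg adjustment over the 7. Upstream windows were aligned globally with Biopython 1.88. SDs are over 2 profiles.

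Named members are the 4 earliest and 4 latest, the 4 with the largest difference in each direction, among those with a window, the first and last, the 3 with the most windows and any called in a fit. Named non-members are the nearest measured flanking genes, the other protein-coding genes inside and the 2 genes of the signalling list with the largest difference in each direction. Members and lists were chosen with earlier results of these data known. Olfr1565, Olfr1173, the sequence pairs, the islands and the stretches were chosen after their values were seen. Proteins were not analysed here.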

Additional observations from a re-analysis of the deposited data

How the results depend on the processing

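The replicate numbers share only a number: deviations of same-numbered profiles correlated at 0.10 over genes and 0.16 over members, from 2 pairs. With the replicate block, 0 members were called, as without it, and 1 bin of the interval against 0 (90100001 to 90150000), while bins called genome-wide went up to 2358 (5.52%, 2.5% in the earlier direction) against 707. With a trended and robust variance 3 members and 2 bins were called, in fits that called 5.31% of all genes and 10.8% of all bins. All bins without a minimum of windows, 100-kb bins and windows within 10 kb of the gene body gave 0 calls in the cluster. Genome-wide these fits called 1 of 48080 bins, 491 of 23277 100-kb bins and 0 of 21078 genes. Where a fit called almost nothing anywhere, 0 in the cluster says little. The fit of genes with at least 3 windows called 0 of 12984 genes. Only 1 member, Olfr1033, holds at least 3 windows, so that fit says little about the array. Leaving out windows with a score beyond 8 removed 0 windows of the interval.

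Signs near 0 were not stable when each profile was left out in turn. The cluster median difference ran from -0.048 to 0.25, the difference in spread from -0.087 to 0.11, and the change in the gap to other Olfr genes from -0.082 to 0.069. That last change was 0.012 with only the members that have a window. The same held for Olfr153 (-0.34 to 0.57), Olfr1128 (-0.44 to 0.43), Olfr1126 (-0.25 to 0.57), Olfr1097 (-0.45 to 0.14), Olfr1096 (-0.32 to 0.14), Olfr1013 (-0.14 to 0.077), Olfr1012 (-0.088 to 0.14), Olfr987 (-0.35 to 0.17) and Olfr1042 (-0.43 to 0.28). Olfr1012 also turned to -0.013 with windows within 10 kb. The other 13 named members and the distal step (-0.60 to -0.38) kept their direction, and the difference of Olfr32 ran from 0.59 to 1.46. Apart from Olfr1168 and Olfr1033 this was fixed in advance, since leaving out a profile cannot turn the sign where the groups do not overlap. The widths of the distal end were added after the data were seen. The causes were not tested.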
